A study of Mus musculus with 2 samples.

Results

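The genes described here are 33 members of a glycolysis and hypoxia response module, chosen by name from the 27998 genes of the count tables. No filter on their values was used, but earlier results of these data were known when they were chosen. They cover glucose uptake and the upper steps of glycolysis (12 genes), the lower steps (6 genes), the handling of pyruvate and lactate (5 genes), hypoxia response genes outside glycolysis (8 genes) and the alpha subunits of the hypoxia-inducible factors (Hif1a and Epas1). They were followed across the cell classes of sorted Gli1-lineage bone cells and between mice injected with vehicle and with teriparatide. The chondrocyte-like cells held the most glycolytic mRNA of the 5 mesenchymal classes compared. Within them 16 of 29 members compared were at least 1.5-fold lower in the teriparatide library, against 17.0% of all genes compared. The median log2 ratio was -0.59 for the members and -0.21 for all genes. When the libraries were scaled by the median of the gene ratios, 5 of 29 members were lower (7.27% of all genes). Citric acid cycle genes, read apart from the module, had a median similar to that of the members before this scaling.

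Glycolysis converts glucose to pyruvate in the cytosol, and lactate dehydrogenase then turns pyruvate into lactate, which leaves the cell through monocarboxylate transporters. When oxygen is low, the prolyl hydroxylases of the Egln family no longer mark Hif1a and Epas1 (also called HIF-2alpha) for destruction, and the stabilized factors raise the transcription of most glycolytic genes together with Vegfa, Bnip3, Pdk1 and other targets. Growth plate cartilage has no blood vessels, and its chondrocytes are known to depend on Hif1a and on glycolysis, while perivascular stromal cells of the marrow are known for Epas1.

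Each library was made from tdTomato+ CD31- CD45- Ter119- cells sorted from the metaphysis of 1 month old mice with the genotype Gli1-CreERT2; Ai9, dissected over 5 mm. Tamoxifen was given on 3 days, followed by 3 daily injections of vehicle in the first group and of teriparatide (a fragment of parathyroid hormone) at 400 ng per g of body weight in the second. The methods of the study give 5 mice per condition, 3 males and 2 females, taken here as pooled in 1 library per condition. Both groups carry the same alleles and received tamoxifen, so the label marks cells in which the Gli1 locus drove Cre, with their descendants. With 1 library per condition there is no replicate, no test was possible, and every 95% interval covers counting error only and not the difference between mice.

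The 2 libraries held 1286 (vehicle) and 2142 (teriparatide) barcodes, with 10567335 and 26270041 unique molecular identifiers (UMIs, 1 per captured mRNA molecule). Mitochondrial genes exceeded 10% of the UMIs in 55.8% and 40.2% of the barcodes, and 549 and 1217 cells passed all filters. Of these, 484 and 1084 fell into a class set by marker genes. The classes were COP-like (chondrocyte-like osteoprogenitor, 64 and 260 cells), hypertrophic-like (7 and 21), preosteoblast-like or preOB-like (43 and 49), osteoblast-like or OB-like (88 and 98), osteocyte-like (18 and 41), MALP-like (marrow adipogenic lineage precursor, 171 and 90), erythroid-like, neutrophil-like (immature and mature), GMP-like (granulocyte-monocyte progenitor) and monocyte-like. The last 5 are blood cells, which were still present although the sort selected against CD45 and Ter119. Col2a1 stood at 40558 and 42339 CPM in COP-like cells against 18.1 and 102 CPM in MALP-like cells, and Cxcl12 at 25393 and 22427 CPM in MALP-like cells. The GMP marker Mpo went against its name in the teriparatide library, with 670 CPM in GMP-like and 1589 CPM in mature neutrophil-like cells. S100a8, from the mature neutrophil list, was higher in the immature than in the mature ones, at 85734 against 80420 CPM and 159391 against 106614 CPM. The immature marker Ngp went with the names, at 47694 against 679 CPM and 37595 against 1122 CPM. CPM are the UMIs of a gene per 1000000 UMIs, after adding up all cells that a library has in the class. The share of male cells, called from genes of the Y chromosome and Xist, was 85.2% and 90.3% in COP-like cells. It was 46.3% and 89.2% in MALP-like, 35.1% and 94.4% in OB-like and 35.3% and 89.7% in preOB-like cells. Monocyte-like cells had 36.4% and 80%. Sex and treatment are thus mixed in MALP-like, OB-like, preOB-like and monocyte-like cells. Osteocyte-like (64.3% and 81.5%) and immature neutrophil-like cells (63.6% and 81.0%) differed less. The 2 libraries shared 2 barcodes, 1 of which passed the filters in both.

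Summed over the 23 genes of glycolysis and of pyruvate and lactate handling, COP-like cells held 8353 CPM (8220 to 8488) with vehicle and 5122 CPM (5072 to 5173) with teriparatide, or 0.835% and 0.512% of their mRNA molecules. OB-like cells were the lowest mesenchymal class in both libraries, at 1444 and 1276 CPM. CPM are shares of all UMIs, and the marker Col1a1 alone took 148004 and 122787 CPM in OB-like cells. In osteocyte-like cells Col1a1 took 28139 and 47228 CPM. The part of such abundant markers in the order of the classes was not tested. In between stood the osteocyte-like (1735 and 1500 CPM), MALP-like (2462 and 1950 CPM) and preOB-like cells (2661 and 1971 CPM), and the hypertrophic-like cells came next to the COP-like cells, at 4810 and 2932 CPM. Among cells outside the mesenchyme, immature neutrophil-like cells reached 7217 and 5548 CPM and erythroid-like cells only 795 and 690 CPM. The sum in immature neutrophil-like cells was thus below that of COP-like cells with vehicle and above it with teriparatide. Summed markers of hematopoietic cells (20 genes) took 505298 and 517179 CPM in erythroid-like and 329516 and 410315 CPM in immature neutrophil-like cells. This leaves a smaller share for all other genes there. The median single cells of the mesenchymal classes stood in the same order. The median COP-like cell had 5517 CPM with vehicle and 3047 CPM with teriparatide, the median MALP-like cell 2345 and 1791 CPM, and the median OB-like cell 1219 and 1176 CPM.

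**Figure D1:**
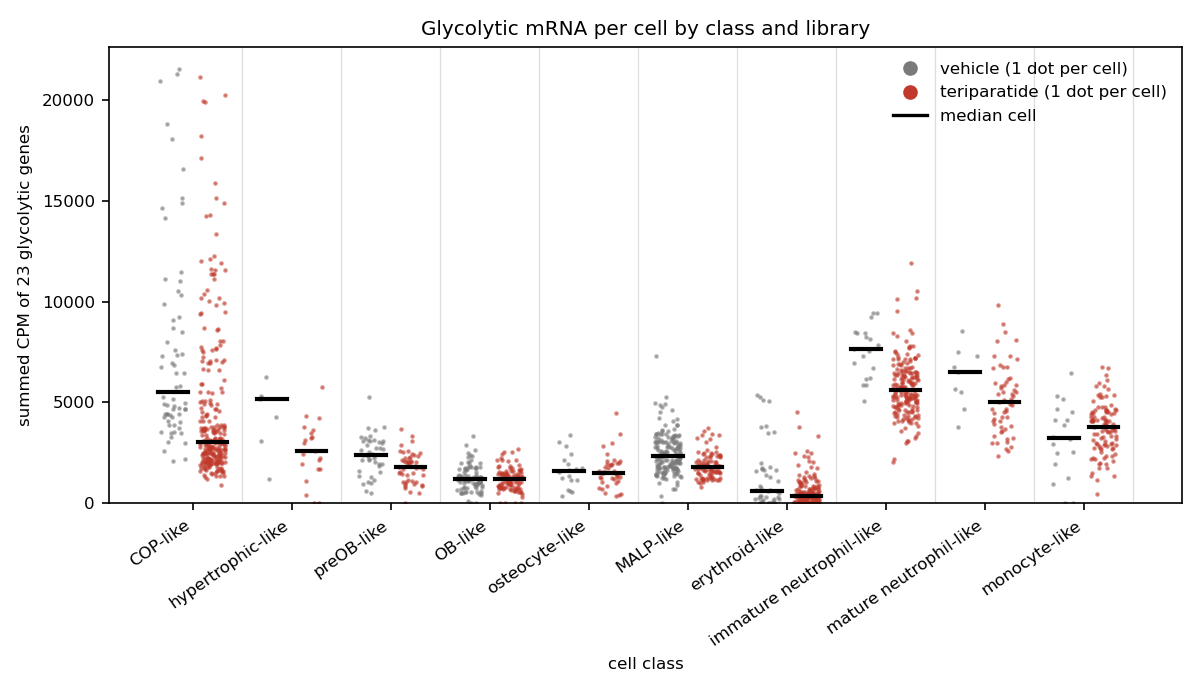
Summed CPM of 23 glycolytic genes in single cells (y axis, CPM) by cell class (x axis) and library; each dot is a cell and the black bar the median cell of 1 library. The median COP-like cell stands at 5517 CPM with vehicle and 3047 CPM with teriparatide, above every other mesenchymal class, and a tail of COP-like cells lies above 10000 CPM in both libraries.

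To ask which members set COP-like cells apart, their summed UMIs were compared within each library with those of the preOB-like, OB-like, osteocyte-like and MALP-like cells together (320 and 278 cells). A gene counted as higher or lower when the ratio was at least 1.5-fold, with at least 50 UMIs in both groups together. In the vehicle library 27 members had these UMIs, and 23 of them were higher in COP-like cells and 2 lower, against 18.2% higher and 27.3% lower among all 8805 genes compared. In the teriparatide library 30 members passed, with 25 higher and 3 lower, against 20.4% higher and 26.4% lower among 10263 genes. The median log2 ratio of the members was 2.01 with vehicle and 1.56 with teriparatide, while that of all genes was -0.09 in both. Eno2, Egln3 and Car9 did not reach 50 UMIs in either library. COP-like cells were deeper, with a median of 29101.5 and 30713 UMIs per cell against 11045 and 13621 in MALP-like cells.

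**Figure D2:**
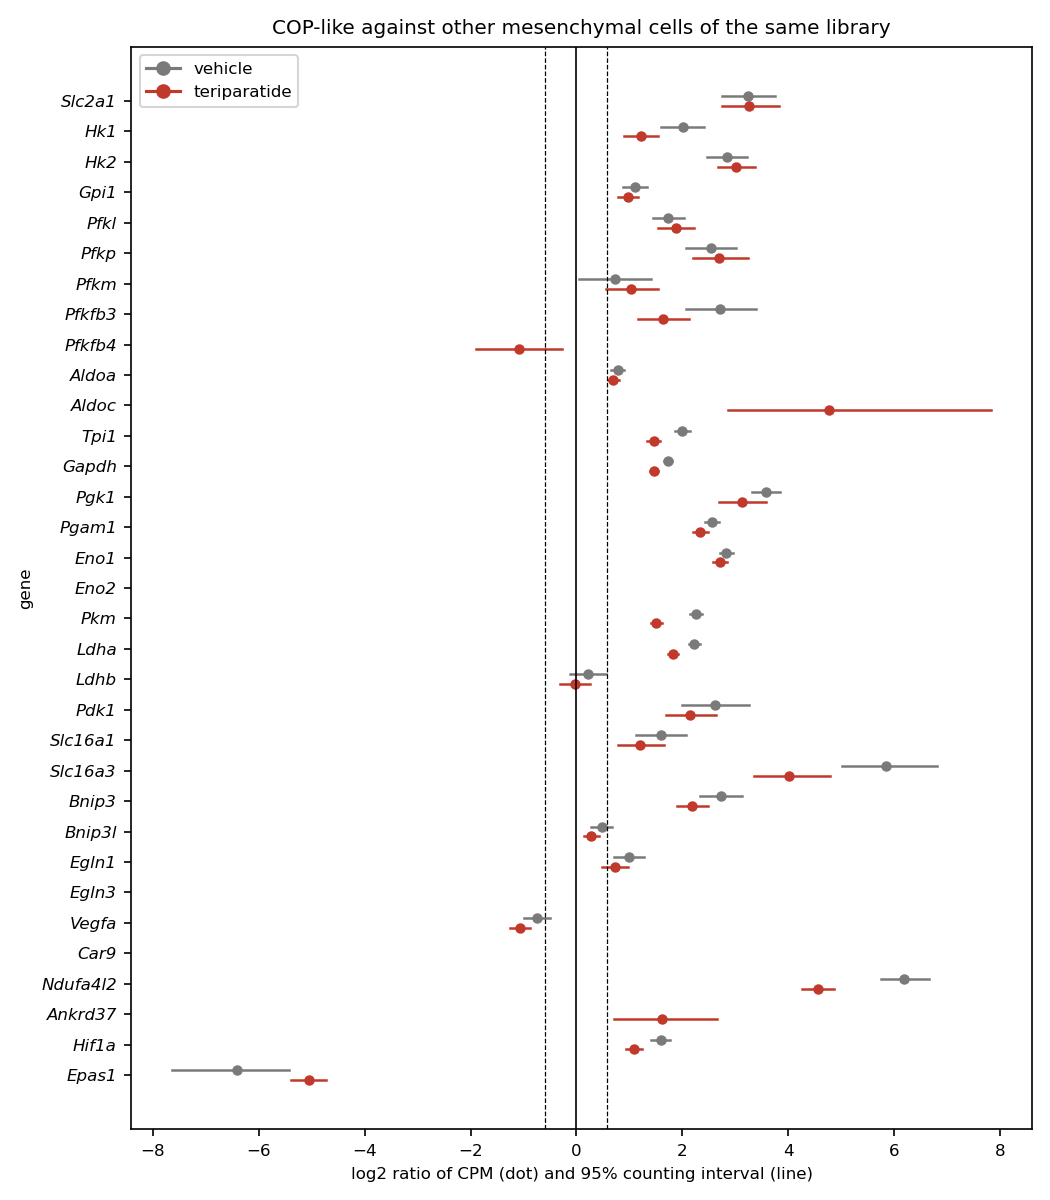
Log2 ratio of COP-like cells to the other mesenchymal cells (x axis) for each member with at least 50 UMIs (y axis), within each library; lines are 95% intervals of counting error. In both libraries Ndufa4l2, Slc16a3 and Pgk1 lie far to the right and Epas1 far to the left, at -6.42 and -5.06.

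Glucose enters the cell through Slc2a1 (GLUT1). Slc2a1 had 90.9 CPM (77.5 to 106) with vehicle and 65.0 CPM (59.5 to 71.0) with teriparatide in COP-like cells. It stood at no more than 27.8 CPM in any other mesenchymal class except the hypertrophic-like cells, which had 268 and 74.4 CPM. Hexokinase traps the sugar in the cell. Its isoform Hk2 had 127 and 129 CPM in COP-like cells and at most 32.7 CPM in preOB-like, OB-like, osteocyte-like and MALP-like cells, with log2 ratios to these of 2.84 (2.47 to 3.22) with vehicle and 3.02 (2.68 to 3.38) with teriparatide. Hk1, the isoform of most tissues, differed less, with log2 ratios of 2.01 and 1.21. Further along the upper steps, the phosphofructokinase Pfkp (2.54 and 2.70) stood further above the other classes than Pfkl (1.74 and 1.88). Pfkfb3, which makes the activator of phosphofructokinase, was at 2.72 and 1.63, the isomerase Gpi1 at 1.11 and 0.98, and the aldolase Aldoa at 0.78 and 0.70. Triosephosphate isomerase (Tpi1) had log2 ratios of 2.0 and 1.46. The muscle isoform Pfkm was nearer to the other classes, at 0.73 (0.04 to 1.40) and 1.04 (0.56 to 1.55). Aldoc and Pfkfb4 reached 50 UMIs with teriparatide alone, where Aldoc, at 11.5 CPM, was at 4.77 (2.87 to 7.84) and Pfkfb4, at 3.21 CPM, at -1.08 (-1.89 to -0.28), the sole enzyme of the set that was lower in COP-like cells.

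The lower steps had the highest median difference of the roles: all 5 members with enough UMIs were higher in COP-like cells of both libraries, with a median log2 ratio of 2.56 with vehicle and 2.34 with teriparatide. Phosphoglycerate kinase (Pgk1, ENSMUSG00000062070, chromosome X from 106187100 to 106203699 on GRCm38), which makes the first ATP of glycolysis, had 369 CPM (341 to 398) with vehicle and 87.0 CPM (80.5 to 93.8) with teriparatide in COP-like cells. In MALP-like cells Pgk1 had 31.3 and 14.0 CPM and in OB-like cells 26.2 and 7.81 CPM, so the COP-like cells were the highest mesenchymal class in each library and differed between the libraries. Enolase (Eno1) followed with 1072 and 672 CPM in COP-like cells, and log2 ratios to the other classes of 2.83 and 2.71. Phosphoglycerate mutase (Pgam1, chromosome 19 from 41911923 to 41918660) had 812 CPM (771 to 855) with vehicle and 484 CPM (468 to 499) with teriparatide, with log2 ratios of 2.56 and 2.34. Pyruvate kinase (Pkm) had 906 and 552 CPM and Gapdh 1677 and 1111 CPM. Eno1 and Gapdh have many processed copies in the genome, and 86.9% and 78.3% of the 50-base stretches at their 3′ ends occur in another gene, so their counts are less certain. Smaller shares, from 12.7% to 22.8%, were found for Gpi1, Pkm, Ldha, Tpi1, Bnip3, Aldoa and Ldhb, and the other 24 members shared none.

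Lactate dehydrogenase A (Ldha) had 1372 CPM (1318 to 1427) with vehicle and 821 CPM (801 to 841) with teriparatide in COP-like cells, against no more than 368 CPM in preOB-like, OB-like, osteocyte-like and MALP-like cells. The lactate exporter Slc16a3 (MCT4, ENSMUSG00000025161, chromosome 11 from 120948480 to 120960868) had 152 CPM (135 to 171) with vehicle and 62.0 CPM (56.6 to 67.7) with teriparatide. In MALP-like cells Slc16a3 had 1.06 and 0.825 CPM and in OB-like cells 3.03 and 5.21 CPM, and the log2 ratio of COP-like to other mesenchymal cells was 5.85 (5.03 to 6.82) with vehicle and 4.02 (3.35 to 4.79) with teriparatide. Its relative Slc16a1 (MCT1) was less set apart, at 1.6 and 1.21. Pdk1, the kinase that keeps pyruvate out of the citric acid cycle, had 43.0 and 42.2 CPM in COP-like cells and no more than 15.2 CPM in the other 4 classes. Ldhb, the subunit of lactate dehydrogenase that favors the return of lactate to pyruvate, did not follow: its log2 ratios were 0.22 (-0.13 to 0.55) and -0.03 (-0.31 to 0.27).

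The promoters of Pgk1, Ldha, Pgam1 and Slc16a3 are shown for their wide differences between the classes in the lower pathway and lactate handling. A smaller share of their 3′ stretches occurs in other genes (20.5% for Ldha, none for the rest) than for Eno1 and Gapdh. Each run is the 250 bases before the first listed start of the RefSeq gene on GRCm38.p6, 5′ to 3′ on the plus strand, at chrX:106186850-106187099 for Pgk1, chr7:46845554-46845803 for Ldha, chr19:41911621-41911870 for Pgam1 and chr11:120948817-120949066 for Slc16a3. Capitals mark ACGTG or GCGTG, the core of the hypoxia response element, on either strand, so that CACGT and CACGC are matches read on the other strand and CACGTG (also the core of the E-box) holds a match on both.
Pgk1: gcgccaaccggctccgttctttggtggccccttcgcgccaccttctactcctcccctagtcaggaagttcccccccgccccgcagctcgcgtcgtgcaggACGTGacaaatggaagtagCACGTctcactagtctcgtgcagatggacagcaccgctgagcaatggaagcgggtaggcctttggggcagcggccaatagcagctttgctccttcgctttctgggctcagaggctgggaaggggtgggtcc
Ldha: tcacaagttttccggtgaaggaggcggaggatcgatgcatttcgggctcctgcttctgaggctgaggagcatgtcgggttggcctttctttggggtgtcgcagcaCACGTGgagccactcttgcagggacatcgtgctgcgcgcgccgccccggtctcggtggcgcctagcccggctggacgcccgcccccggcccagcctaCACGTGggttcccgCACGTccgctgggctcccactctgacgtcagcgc
Pgam1: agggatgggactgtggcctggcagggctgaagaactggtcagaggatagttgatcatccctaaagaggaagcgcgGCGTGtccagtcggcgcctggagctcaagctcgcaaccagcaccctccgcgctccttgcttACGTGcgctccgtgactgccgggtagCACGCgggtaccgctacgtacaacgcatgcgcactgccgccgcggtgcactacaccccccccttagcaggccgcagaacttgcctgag
Slc16a3: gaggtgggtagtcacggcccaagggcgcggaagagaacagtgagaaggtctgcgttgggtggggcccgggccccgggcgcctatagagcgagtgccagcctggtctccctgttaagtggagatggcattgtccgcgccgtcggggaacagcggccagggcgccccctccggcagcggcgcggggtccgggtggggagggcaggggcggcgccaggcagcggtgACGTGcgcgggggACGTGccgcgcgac
Pgk1 and Slc16a3 had 2 matches each, Pgam1 had 3 and Ldha had 5, of which 2 pairs are the strands of a palindrome. The set of RefSeq promoters used here held 30 of the 33 members, without Bnip3l, Ndufa4l2 and Epas1. In the 250 bases before the first listed start, 23 of the 30 (76.7%) held at least 1 match. Of 27025 promoters of all genes 38.6% did. The bases soon after the start were found near an annotated transcript start for 35 of 44 listed member promoters. The windows shown for Ldha and Slc16a3 lie inside the annotated gene spans, which begin at 46841475 and 120948480. The members' promoters had a median GC content of 61% and all promoters 52%, and both motifs hold CG. A match is a description of the letters and not evidence that a factor binds there.

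Among the hypoxia response genes, Ndufa4l2 differed most between the classes. Ndufa4l2 (ENSMUSG00000040280, chromosome 10 from 127514967 to 127517154), a mitochondrial protein that is known as a strongly HIF-dependent gene, had 707 CPM (668 to 747) with vehicle and 484 CPM (469 to 499.96) with teriparatide in COP-like cells. It had 3.19 and 3.30 CPM in MALP-like cells, 19.16 and 32.98 CPM in OB-like cells and 0 (at most 6.34) and 19.7 CPM in preOB-like cells, and the log2 ratio of COP-like to other mesenchymal cells was 6.19 (5.76 to 6.66) with vehicle and 4.56 (4.27 to 4.87) with teriparatide. When each cell was thinned to 4114 UMIs, a UMI of Ndufa4l2 was seen in 54.0% of 63 vehicle and 39.4% of 254 teriparatide COP-like cells (70.3% and 59.2% unthinned, at medians of 29101.5 and 30713 UMIs). Erythroid-like cells, which should lack it, had it in 0 of 32 and 0 of 121 thinned cells, with upper limits of 10.9% and 3.00%. They held medians of 9999 and 10461 UMIs before thinning. Markers of hematopoietic cells took 505298 and 517179 CPM in erythroid-like cells. Fewer of their 4114 UMIs were thus left for other genes, in this and the later thinned comparisons.

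The mitophagy receptor Bnip3 had 112 and 109.9 CPM in COP-like cells and log2 ratios of 2.73 and 2.19 to the other mesenchymal cells. Its relative Bnip3l (Nix), which clears mitochondria from red cell precursors, stood closer to the other classes, with log2 ratios of 0.48 and 0.28, and was highest in erythroid-like cells at 470 and 514 CPM. Egln1, the main HIF prolyl hydroxylase, stood at 1.00 and 0.72, and Ankrd37, with 10.0 and 7.83 CPM, reached 50 UMIs with teriparatide alone, at 1.62 (0.72 to 2.65). Egln3 had 3.91 and 1.41 CPM and Car9, a carbonic anhydrase often used as a hypoxia marker, 4.46 and 0.257 CPM in COP-like cells, so neither was much detected there. Vegfa, the vascular growth factor, went the other way, with log2 ratios of -0.74 (-0.98 to -0.50) and -1.07 (-1.26 to -0.88). Its levels were highest in the few hypertrophic-like cells (589 and 364 CPM), and lower in COP-like (99.9 and 51.8 CPM) and OB-like cells (79.2 and 37.3 CPM). The osteocyte-like level (356 and 189 CPM) and that of MALP-like cells (268 and 250.1 CPM) lay between, in opposite order in the libraries and with overlapping intervals.

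The alpha subunits of the hypoxia-inducible factors divided between the classes. Hif1a had 316 CPM (290.3 to 343) with vehicle and 196 CPM (186 to 206) with teriparatide in COP-like cells, and 128 and 140.3 CPM in MALP-like cells. Epas1 (ENSMUSG00000024140, chromosome 17 from 86753700 to 86833410) had 902 CPM (859 to 946) with vehicle and 1305 CPM (1241 to 1371) with teriparatide in MALP-like cells. In COP-like cells its level was 4.46 CPM (1.93 to 8.79) after vehicle and 10.8 CPM (8.59 to 13.3) after teriparatide. As a share of the UMIs of both subunits, Epas1 made up 87.6% and 90.3% in MALP-like cells, 28.1% and 46.6% in preOB-like, 31.4% and 32.8% in osteocyte-like, 5.1% and 15.9% in OB-like and 1.4% and 5.2% in COP-like cells. MALP-like cells thus held mainly Epas1 and COP-like cells almost only Hif1a. In cells thinned to 4114 UMIs, Epas1 was seen in 89.58% and 94.05% of MALP-like cells, in 1.59% and 2.36% of COP-like cells and in none of the erythroid-like cells.

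**Figure D3:**
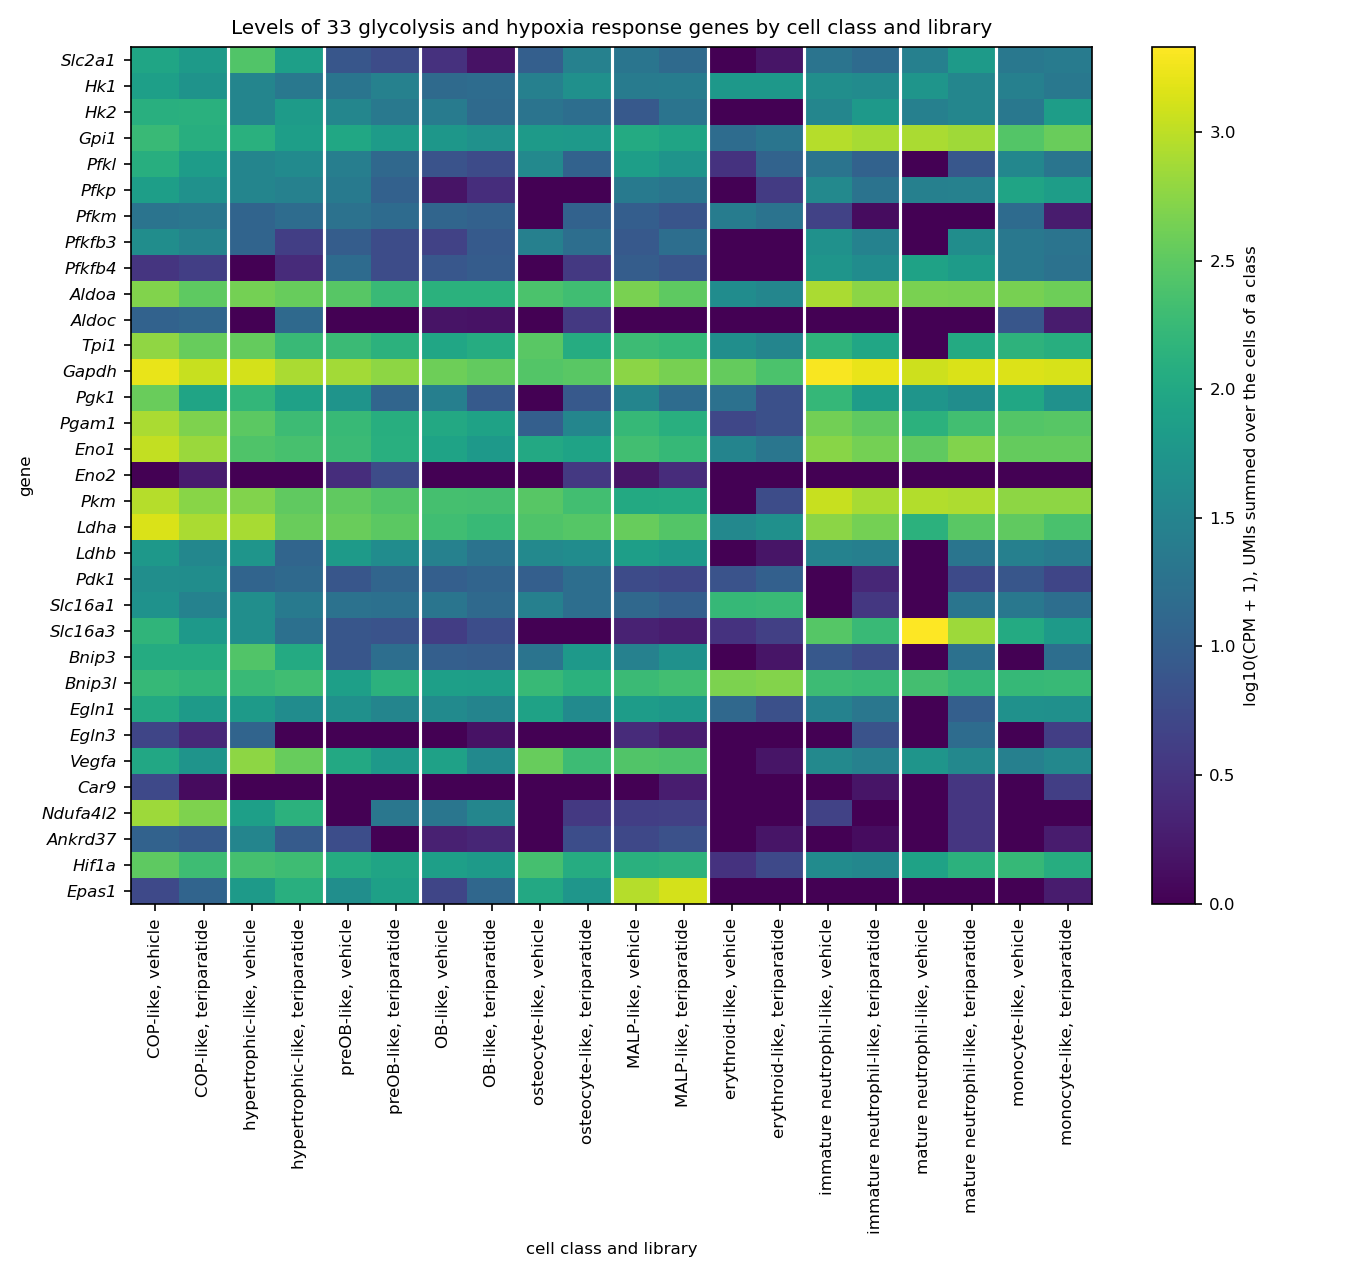
Level of each of the 33 members (rows, CPM on a log color scale) in each cell class and library (columns). Among COP-like, preOB-like, OB-like, osteocyte-like and MALP-like columns, the COP-like ones are highest in both libraries for 25 members. For 14 of these the intervals are apart from the other classes ranked. The MALP-like columns are highest for Ldhb, Bnip3l and Epas1. Hypertrophic-like columns were not ranked. Of the 25 members, they stand first of all classes for Slc2a1 and Ankrd37 in both libraries. They also do so for Bnip3 and Egln3 with vehicle and for Aldoc and Hif1a with teriparatide. The same ranking was not made for all genes.

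Compared with all other mesenchymal cells, COP-like cells included, MALP-like cells were higher for 5 of 27 members in the vehicle library (42.0% of all genes higher) and 5 of 30 in the teriparatide library (43.7%), and lower for 17 and 19 members (14.1% and 17.0% of all genes lower). Epas1 stood at 6.28 (5.88 to 6.70) with vehicle and 6.23 (6.02 to 6.46) with teriparatide, Vegfa at 1.47 and 2.20, Ldhb at 0.66 and 0.92 and Bnip3l at 0.69 and 0.65. Aldoa, at 0.60 and 0.28, passed 1.5-fold in the vehicle library and Pfkfb4, at 0.61 (-0.68 to 1.70), in the teriparatide library. COP-like cells, high in most members, supplied 1792414 and 7795439 UMIs to the comparison group, and OB-like cells 1982939 and 2304546. The counts of lower members therefore do not place MALP-like cells below each other class. Their summed glycolytic CPM (2462 and 1950) were above those of OB-like (1444 and 1276) and osteocyte-like cells (1735 and 1500). In OB-like and osteocyte-like cells no member was at its highest mesenchymal level in both libraries, and in preOB-like cells the only such member, Eno2, had 1 and 4 UMIs, too few for an order.

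The isoforms of single steps were used in different proportions by the classes. These are shares of UMIs of the 3′ ends of transcripts, read only for how they differ between classes. Hk2 made up 63.2% and 72.0% of the hexokinase 1 and 2 UMIs in COP-like cells, 24.1% and 43.1% in MALP-like cells and 0% in erythroid-like cells of both libraries, which held Hk1 at 59.0 and 59.6 CPM. Of the phosphofructokinases, the muscle isoform Pfkm supplied 62.9% and 60.5% of the UMIs in OB-like cells but 8.4% and 14.7% in COP-like cells, and the liver isoform Pfkl supplied 69.4% and 67.0% in MALP-like cells. Slc16a3 held 75.8% and 68.2% of the UMIs of the 2 lactate transporters in COP-like cells, 8.0% and 8.3% in MALP-like cells and 1.2% and 1.8% in erythroid-like cells, where Slc16a1 had 171 and 180.4 CPM. Immature neutrophil-like cells held 100% and 98.6% Slc16a3. Pfkfb3 supplied 94.9% and 90.4% of the Pfkfb3 and Pfkfb4 UMIs in COP-like but 46.4% and 41.3% in immature neutrophil-like cells.

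Cells outside the mesenchyme had their own profiles. Mature neutrophil-like cells had the highest Slc16a3 of all classes, at 2144 and 696 CPM, and immature neutrophil-like cells the highest Gpi1, at 917 and 775 CPM (814 and 714 CPM in mature ones), with no UMI of Epas1 (at most 13.3 and 1.02 CPM). In erythroid-like cells Slc2a1 had 0 and 0.552 CPM, Pkm 0 and 4.96 CPM and Hk2 no UMI (at most 7.50 and 2.03 CPM). Summed markers of hematopoietic cells (20 genes) reached 29.6 CPM with vehicle and 228 CPM with teriparatide in COP-like cells, with 10 and 3 of the markers at 0, and 226 and 464 CPM in MALP-like cells. Their part in the members' levels was not tested.

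COP-like cells were then divided by growth plate markers into resting (12 and 65 cells), columnar (21 and 133), cycling (5 and 14) and other cells (26 and 48). Summed glycolytic CPM were 6353 and 3278 in resting, 8972 and 5875 in columnar, and 9902 and 4620 in cycling cells. Between columnar and resting cells, 7 of 21 members were higher and 0 lower in the vehicle library (13.4% and 16.2% of all genes), and 12 of 28 were higher and 3 lower in the teriparatide library (13.5% and 13.2%). Male cells made up 65.0% and 90.6% of the columnar and 100% and 98.4% of the resting cells with a sex call. The part of sex in these differences was not tested. Ndufa4l2 had 941 CPM in columnar and 243 CPM in resting cells of the vehicle library, a log2 ratio of 1.95 (1.56 to 2.36), and 629 and 201 CPM in the teriparatide library, a log2 ratio of 1.65 (1.49 to 1.82). Slc16a3 (0.98 and 2.38), Eno1 (0.98 and 1.27), Gapdh (0.82 and 1.17) and Tpi1 (0.63 and 0.88) were also higher in columnar cells of both libraries. Pgk1 passed 1.5-fold in the teriparatide library alone, with 110.1 and 35.8 CPM. Hif1a itself was not higher in columnar cells, at 295 CPM in columnar and 417 CPM in resting cells of the vehicle library and 173 and 251 CPM in the teriparatide library. Ldhb was lower in columnar cells of the teriparatide library, at 19.0 against 63.4 CPM.

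Single COP-like cells spread widely for Ndufa4l2, and they were described in 3 ranges of it. Since the split uses a member, what follows is a description with no test. In the vehicle library 19 cells (29.7%) had no UMI of Ndufa4l2, 31 had up to 1000 CPM and 14 (21.9%, 12.5 to 34.0) had 1000 CPM or more. In the teriparatide library these were 106 (40.8%), 118 and 36 cells (13.8%, 9.89 to 18.7). The range of 500 to 2000 CPM held 22 vehicle and 42 teriparatide cells, so no gap separated the upper range. The median summed glycolytic CPM in the lowest, middle and upper range was 4097, 5781 and 14781 CPM in the vehicle library and 2324, 3532 and 11359 CPM in the teriparatide library. Median UMIs per cell in the lowest and the upper range were 20307 and 36016 with vehicle and 24234.5 and 41142 with teriparatide. Of the upper cells, 7 vehicle and 27 teriparatide cells were columnar and 0 and 3 resting. Sex calls in the lowest range were 17 male and 1 female with vehicle and 98 male and 1 female with teriparatide. In the upper range they were 10 male and 4 female, and 30 male and 5 female. The part of sex was not tested.

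**Figure D4:**
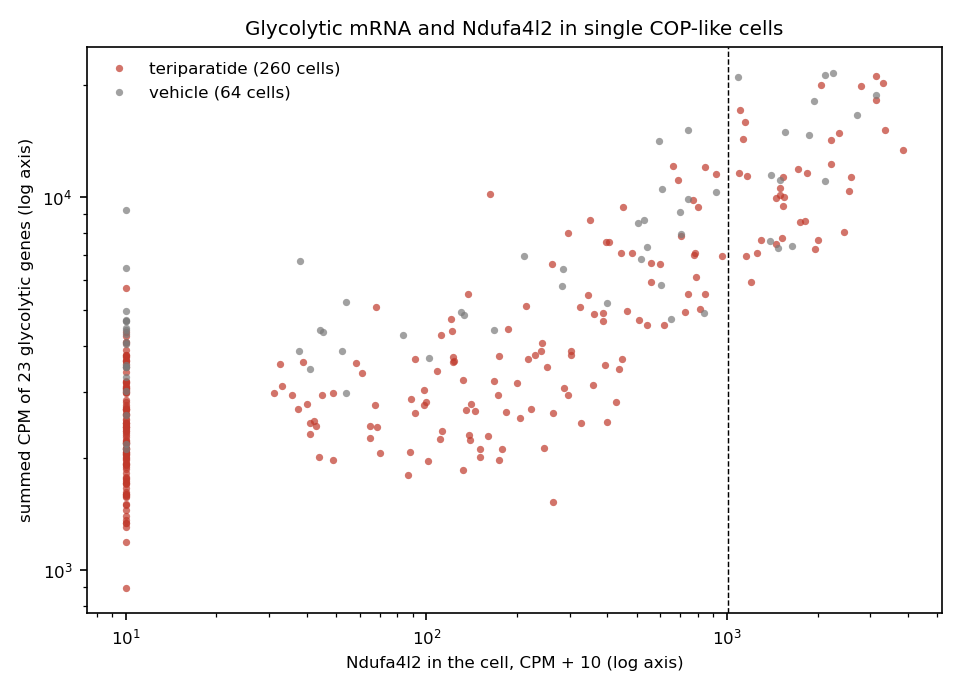
Each point is a COP-like cell, with its Ndufa4l2 (x axis, CPM + 10, log axis) and its summed CPM of 23 glycolytic genes (y axis, log axis), by library. Cells with 1000 CPM or more of Ndufa4l2 have median glycolytic sums of 14781 CPM (vehicle) and 11359 CPM (teriparatide).

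In the upper against the lowest of these ranges, 15 of 21 other members were higher and 2 lower in the vehicle library (20.6% and 20.0% of all genes), and 20 of 27 were higher and 2 lower in the teriparatide library (18.9% and 20.2%). Eno1 had 2312 CPM in the upper and 278 CPM in the lowest range of the vehicle library, and 1732 and 236 CPM in the teriparatide library. Slc16a3 had 354 and 15.9 CPM with vehicle and 211 and 6.53 CPM with teriparatide, and Bnip3 had 237 and 31.7 CPM with vehicle and 229 and 74.5 CPM with teriparatide. Ldhb ran in the opposite direction, with 18.1 against 127 CPM with vehicle and 15.5 against 48.0 CPM with teriparatide. Hif1a had 274 against 378 CPM with vehicle and 233 against 175 CPM with teriparatide, so its mRNA did not follow the others in both. Of the chondrocyte markers, Sox9 was level across the ranges, at 942 against 954 CPM and 1121 against 1087 CPM. Sox5 was lower in the upper range, with log2 ratios of -0.87 (-1.32 to -0.44) with vehicle and -0.24 (-0.46 to -0.02) with teriparatide. Sox6 stood at -0.36 (-0.99 to 0.26) and -0.18 (-0.48 to 0.12). The cartilage collagen Col2a1 (1.28 and 0.78), Col9a1 (1.29 and 0.84), Matn3 (1.06 and 0.72) and Acan (0.63 and 0.61) were higher in the upper range. The markers used to call resting cells were lower in the upper range. Cpm was at -3.95 and -2.22, Sfrp5 at -5.35 and -5.56 and Hhip at -1.07 and -1.28. Chad, the marker used to call columnar cells, had opposite directions in the libraries. It had 451 against 338 CPM with vehicle (0.41, 0.09 to 0.74) and 1069 against 2240 CPM with teriparatide (-1.07, -1.15 to -0.99).

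The treatments were compared by the ratio of the teriparatide to the vehicle library within each class, in which the effect of teriparatide and other differences between the 2 libraries cannot be told apart. In COP-like cells 29 members had at least 50 UMIs, and 16 of them were at least 1.5-fold lower in the teriparatide library and 1 higher, against 17.0% lower and 8.13% higher among all 9136 genes compared. The ratio was below 1 for 25 of the 29 and its interval lay below 1 for 21. The shares of all genes below 1 were not computed, so these counts are not read apart from the general shift. The median log2 ratio was -0.59 for the members and -0.21 for all genes, a shift of all genes that the total count alone does not remove. When the libraries were scaled by the median of the gene ratios, which sets this shift to 0, the members lower by 1.5-fold numbered 5 of 29, against 7.27% of all genes, and their median was -0.39. The 5 were Pgk1, Slc16a3, Vegfa, Pfkl and Ldhb. The libraries differed in sex by little in this class (85.2% and 90.3% male), and in male cells alone 15 members were lower (20.9% of all genes).

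Pgk1 differed most, with 369 CPM with vehicle and 87.0 CPM with teriparatide in COP-like cells, a log2 ratio of -2.08 (-2.24 to -1.93), or -1.88 after scaling by the median of ratios. A UMI of Pgk1 was seen in 60.3% of vehicle and 19.7% of teriparatide COP-like cells at 4114 UMIs per cell (90.6% and 59.6% unthinned), and in 3.12% and 1.65% of erythroid-like cells at the same depth. In the subgroups of COP-like cells the log2 ratio of Pgk1 was -3.03 in resting, -1.57 in columnar, -2.63 in cycling and -2.33 in other cells. Pgk1 was also lower by 1.5-fold in each of the 6 further classes where it had 50 UMIs. Its level was 26.2 and 7.81 CPM in OB-like cells (-1.75, -2.61 to -0.95), 31.3 and 14.0 CPM in MALP-like cells (-1.16, -2.03 to -0.36), 161 and 80.8 CPM in hypertrophic-like cells (-0.99), 165 and 67.5 CPM in immature neutrophil-like cells (-1.29), 285 and 93.9 CPM in GMP-like cells (-1.6, on 2 and 17 cells) and 94.8 and 47.0 CPM in monocyte-like cells (-1.01). In preOB-like cells it had 51.6 and 11.1 CPM on 30 and 9 UMIs, below the minimum. The MALP-like ratio was -0.34 in thinned cells, and the OB-like ratio was 0.14 in female cells alone (48 and 4 cells).

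By role in COP-like cells, the lower steps of glycolysis were lower for all 5 members with enough UMIs (median log2 ratio -0.71). Pyruvate and lactate handling was lower for 4 of 5 (-0.75), uptake and upper glycolysis for 4 of 11 (-0.54) and the hypoxia response genes for 2 of 6 (-0.45). Of all genes 17.0% were lower, with a median of -0.21, and each role holds few genes. Slc16a3 had 152 and 62.0 CPM, a log2 ratio of -1.30 (-1.51 to -1.08). Ldha had 1372 and 821 CPM (-0.74, -0.81 to -0.67) and Pgam1 812 and 484 CPM (-0.75). Tpi1 (-0.75), Pkm (-0.71), Eno1 (-0.67), Aldoa (-0.64) and Gapdh (-0.59) lay close together, and so did Hif1a, with 316 and 196 CPM (-0.69, -0.83 to -0.55). The remaining members lower by 1.5-fold were Vegfa (-0.95), Pfkl (-0.84), Ldhb (-0.82), Slc16a1 (-0.75), Egln1 (-0.72) and Pfkp (-0.59).

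Some members of the same reactions differed little between the libraries in COP-like cells. Hk2 had 127 and 129 CPM, a log2 ratio of 0.02 (-0.19 to 0.23), whereas Hk1 had 74.20 and 50.03 CPM (-0.57). Bnip3 was at -0.03 (-0.25 to 0.20) and Pdk1 at -0.03 (-0.39 to 0.35), both genes that are known HIF targets like Pgk1. Ndufa4l2 had 707 and 484 CPM, a log2 ratio of -0.55 (-0.64 to -0.45), short of 1.5-fold. Epas1 was the single member higher by 1.5-fold, at 1.27 (0.23 to 2.53), on 8 vehicle and 84 teriparatide UMIs. Set against the shift of all genes of -0.21, Hk2, Bnip3 and Pdk1 lay above the median gene.

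**Figure D5:**
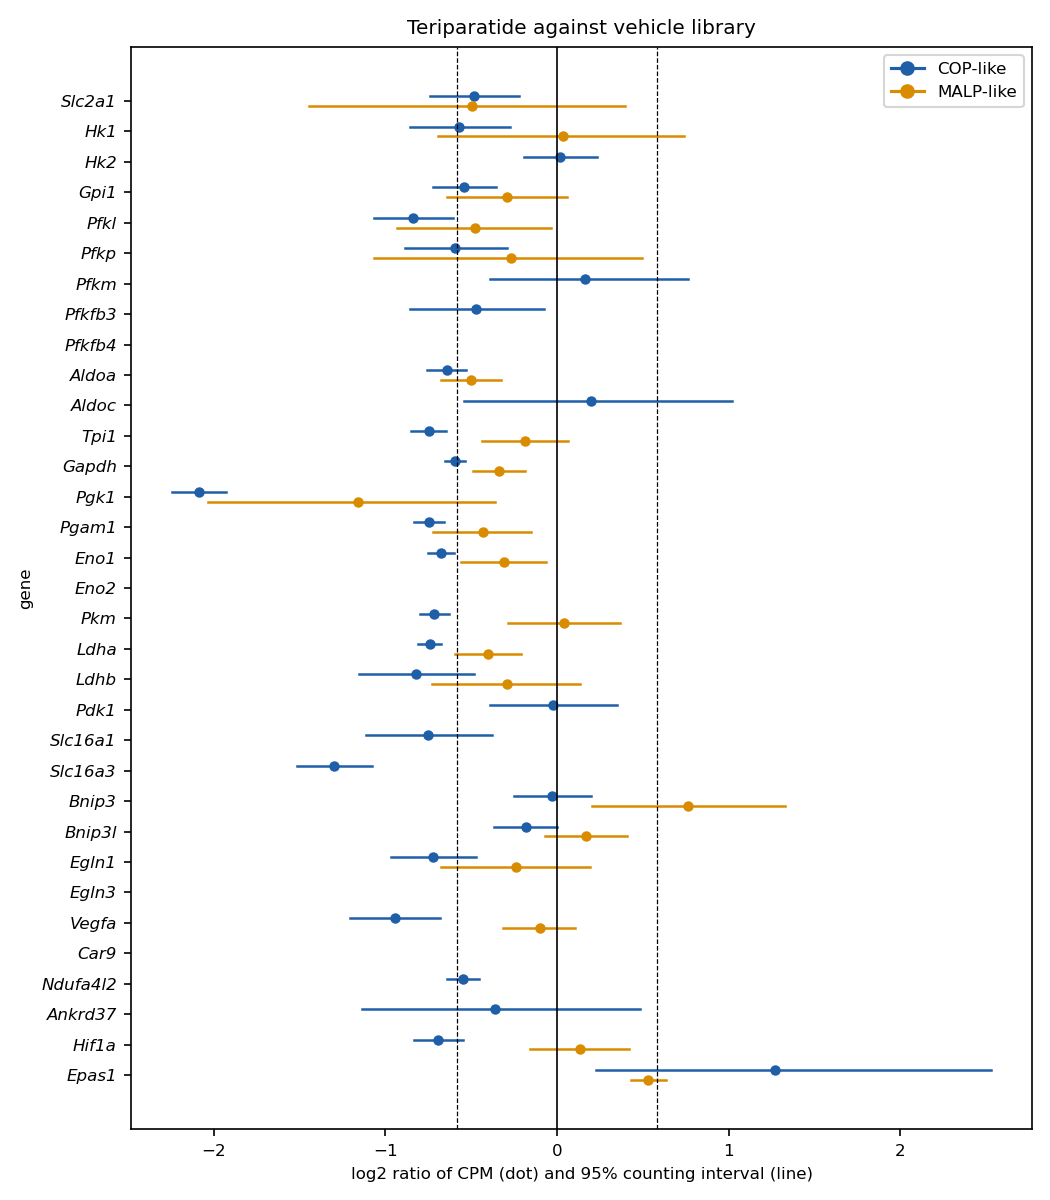
Log2 ratio of the teriparatide to the vehicle library (x axis) for each member (y axis) in COP-like and in MALP-like cells; lines are 95% intervals of counting error. In COP-like cells Pgk1 is at -2.08 and Slc16a3 at -1.30, and most other members lie between -0.95 and 0, while MALP-like cells have Bnip3 at 0.77 and Epas1 at 0.53.

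The ratio was also read within the ranges of Ndufa4l2, with no test of the difference between them. Among cells with no UMI of it, 11 of 24 members were lower by 1.5-fold (26.3% of all genes) and 3 higher (11.2%), and among those up to 1000 CPM 11 of 25 were lower (18.8%) and 0 higher (9.16%). Among cells with 1000 CPM or more 2 of 24 were lower (13.3%) and 1 higher (7.50%), with a median log2 ratio of -0.24 against -0.16 for all genes, yet Pgk1 was at -1.61 (-1.83 to -1.40) there. Columnar cells had 16 of 27 members lower (18.7% of all genes) and 2 higher (10.0%), and resting cells 14 of 23 lower (28.7%) and 0 higher (12.5%). Male cells made up 65.0% of the vehicle and 90.6% of the teriparatide columnar cells with a sex call. Chad, which sets the columnar call, itself differed between the libraries (338 and 2240 CPM in COP-like cells without Ndufa4l2). The subgroups may therefore not be alike across the libraries, which also holds for the subgroup ratios of Pgk1 above.

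In MALP-like cells 1 of 20 members was lower (10.1% of all genes) and 1 higher (7.87%), with a median log2 ratio of -0.28 against -0.07 for all genes. The lower one was Pgk1. The higher one was Bnip3, with 28.2 CPM (21.1 to 36.8) with vehicle and 47.9 CPM (36.4 to 61.9) with teriparatide, a log2 ratio of 0.77 (0.20 to 1.33) that turned to -0.62 in female cells alone (72 and 8 cells). Epas1 had 902 and 1305 CPM, a log2 ratio of 0.53 (0.43 to 0.63), just under 1.5-fold. Vegfa was level, at 268 and 250.1 CPM (-0.10, -0.31 to 0.11). Aldoa (-0.50), Ldha (-0.40) and Gapdh (-0.33) were below 0 with intervals that left it out.

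In OB-like cells 4 of 18 members were lower (13.8% of all genes) and 1 higher (7.16%). Vegfa had 79.2 and 37.3 CPM (-1.09, -1.48 to -0.70), Hk2 23.20 and 13.02 CPM (-0.83) and Ldhb 27.7 and 17.8 CPM (-0.64), while Ndufa4l2 had 19.16 and 32.98 CPM (0.78, 0.20 to 1.38). Male cells made up 35.1% of the vehicle and 94.4% of the teriparatide OB-like cells with a call, and in female cells alone, chosen as an alternative after the values were seen, no OB-like member was lower (21.1% of all genes). In preOB-like cells 3 of 14 members were lower (18.2%) and 2 higher (9.02%). The higher were Bnip3l, with 75.6 and 136 CPM (0.84), and Epas1, with 43.0 and 76.4 CPM (0.83), and in male cells alone they stood at 0.13 and -0.44. In osteocyte-like cells 3 of 8 were lower (21.9%), namely Tpi1 with 301 and 116 CPM, Hif1a with 219 and 114 CPM and Vegfa with 356 and 189 CPM, on 18 and 41 cells. In hypertrophic-like cells 10 of 16 were lower (20.1%) and 2 higher (25.2%), on 7 vehicle cells.

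Outside the mesenchyme the members did not share 1 direction. In immature neutrophil-like cells 5 of 21 were lower (25.5% of all genes) and 1 higher (10.1%), and in mature neutrophil-like cells, on 9 and 57 cells, 1 of 10 was lower (23.6%) and 4 higher (34.1%). The lower member of the latter was Slc16a3, with 2144 and 696 CPM (-1.62, -1.99 to -1.25). In monocyte-like cells 2 of 15 members were lower (14.4%) and 1 higher (14.7%). In erythroid-like cells 1 of 8 was lower (12.0%) and 0 higher (9.51%), while GMP-like cells, of which the vehicle library had 2, had 3 of 10 lower (16.7%) and 2 higher (37.7%).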

How the data were processed

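The authors ran Cell Ranger on the reads of 2 10x Genomics libraries, 1 per condition, and what they deposited are its raw UMI counts for every gene and barcode (version 2.1.0 in the submitters' processing notes, 3.1.0 in the matrix header). Per the study's methods the reads were mapped to mm10, the UCSC name of GRCm38; gene positions are those of GENCODE on GRCm38. Cells with 200 to 6000 genes and at most 10% mitochondrial UMIs were kept, as in the study. No doublet caller was run, and cells past the marker limits of several lineages got no class (65 vehicle and 133 teriparatide cells had none in all). Classes were set by summed CPM of marker genes: at least 5000 of chondrocyte markers (COP-like), 10000 of Col10a1 and Ihh (hypertrophic-like), 10000 of MALP, 100000 of OB and 5000 of osteocyte markers, or 500 of preOB markers below the OB limit. Cells with Ptprc were not counted as mesenchymal. COP-like cells with at least 100 CPM of proliferation genes were called cycling. Of the rest, cells past 300 CPM of Chad alone were columnar and cells past 500 CPM of Sfrp5, Cpm and Hhip alone resting. Cells past both limits or neither were other cells. Chad differed between the libraries (338 and 2240 CPM in COP-like cells without Ndufa4l2), so these subgroups may not be alike across the libraries.

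UMIs were summed per class and library and given with exact Poisson (CPM), conditional binomial (ratios) and Clopper-Pearson (shares) intervals at 95%. Cells of a library are not replicates, so no test was run; genes with at least 50 UMIs were called at 1.5-fold, the fold of the study's methods. All members are accounted for, with full values for those with the widest range between classes, those past 1.5-fold between the libraries with an interval without 0, and paralogs of 1 reaction. Of each further list (other glycolysis and pyruvate genes, other hypoxia response genes, HIF regulators, pentose phosphate genes, citric acid cycle genes) at most 3 genes at each end are named. Members, lists and rules were chosen with earlier results of these data known. Alternatives were another scaling, other limits on mitochondrial UMIs, genes, UMIs and markers, classes from clusters, thinned cells and cells of 1 sex. The code was tested on simulated data. Python 3.11.15, numpy 2.4.6, scipy 1.17.1, pandas 2.3.3, scanpy 1.11.5, leidenalg 0.10.2 and matplotlib 3.10.9 were used.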

Additional observations from a re-analysis of the deposited data

Results flagged for a closer look

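For 3 members the ratio of the teriparatide to the vehicle library had opposite signs in 2 cell classes, with an interval that left out 0 in each. GMP-like cells were left out of this search. The same search was not made over all genes, so the count is not read as a result about the members. With 1 library per condition the differences between classes were not tested. In MALP-like, OB-like and monocyte-like cells the libraries also differ in the share of male cells. For Hk2 the log2 ratio was 1.80 (0.20 to 4.10) in monocyte-like and -0.83 (-1.55 to -0.14) in OB-like cells. Bnip3 stood at 0.77 (0.20 to 1.33) in MALP-like and at -1.29 (-1.97 to -0.57) in hypertrophic-like cells, the latter on 7 vehicle cells. Ndufa4l2 had 0.78 (0.20 to 1.38) in OB-like and -0.55 (-0.64 to -0.45) in COP-like cells.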

How the results depend on the processing

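Between COP-like and other mesenchymal cells, 578 of 580 values of the members called there kept their direction under the alternatives, and the counts of higher members stayed at 21 to 24 with vehicle and 22 to 25 with teriparatide. The exceptions were Pfkm with vehicle (-0.10 with at most 5000 genes per cell) and Ankrd37 with teriparatide (-0.043 in female cells). Between the libraries 340 of 349 values kept their direction. Both totals include the values at a minimum of 20 UMIs (53 between classes, 32 between libraries). Those repeat the main values and could not change. Scaling by the median of ratios took the lower members in COP-like cells from 16 to 5 and all lower genes there from 1551 to 664. The lower members in preOB-like cells went from 3 to 1 (18.2% and 12.3% of all genes lower). Other settings left 15 to 18 lower members in COP-like cells, while the share of all genes lower ran from 16.8% to 27.9% (thinned cells). In preOB-like cells the count was 5 of 14 with a mitochondrial limit of 5% (22.5% of all genes lower). It was also 5 of 14 with thinned cells (26.8%) and with at most 5000 genes (23.8%). With classes from clusters it was 7 of 14 (20.2%). A minimum of 20 UMIs gave higher counts in preOB-like and osteocyte-like cells, but it can let in further members. The share of all genes was not computed for these classes at that minimum, so its counts are not read. In MALP-like cells it was 2 of 20 with the 5% limit (10.6% of all genes lower) and in male cells (13.5%). It was also 2 of 20 with doubled marker limits (10.1%) and with at most 5000 genes (10.7%), and 3 of 20 in female cells (23.7%). In OB-like cells it was 2 of 18 with thinned cells (27.4% of all genes lower) and 0 of 18 in female cells (21.1%). In preOB-like cells Epas1 turned to -0.44 in male cells and Ldhb to 0.26 with doubled marker limits. In female cells, an alternative chosen after seeing the data, COP-like Slc16a1 turned to 0.52, preOB-like Aldoa to 0.23, OB-like Hk2 to 1.22, Pgk1 to 0.14 and Ldhb to 0.35, osteocyte-like Hif1a to 0.74 and MALP-like Bnip3 to -0.62. Where no value above names the setting itself as the cause, the cause was not tested. Clusters held 67.4% of the preOB-like cells under the same name, and 86.4% to 99.5% of the other 4 classes. Members with fewer than 50 UMIs cannot be read at this depth. No paired analysis was possible because each condition has 1 library.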

Other observations

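Further genes of the same metabolism, listed apart from the module, were read in COP-like cells in the same way. Of all genes compared, 18.2% were higher and 27.3% lower with vehicle, and 20.4% higher and 26.4% lower with teriparatide. The lists are short, so a count near these shares is not read as a result about its list. Of the 21 other hypoxia response genes, 20 passed the minimum with vehicle, with 11 higher and 3 lower than in the other mesenchymal cells, and 21 passed with teriparatide, with 9 higher and 4 lower. Stc2, a secreted glycoprotein, was at 5.38 and 6.04 on the log2 scale and Bhlhe40, a transcriptional repressor, at 3.74 and 3.55. Angptl4, a secreted inhibitor of lipoprotein lipase, was at -3.66 and -2.15 and Mxi1 at -1.34 and -1.37. The 11 citric acid cycle genes were nearly level, with 1 higher and 0 lower with vehicle and 1 higher and 1 lower with teriparatide. Of the 7 pentose phosphate genes 3 were higher in each library, among them the transketolase Tkt (0.97 and 1.01), and 2 and 3 were lower, among them the dehydrogenase Pgd (-1.11 and -1.13). Of the other glycolysis and pyruvate genes 0 of 9 and 0 of 10 were higher and 4 and 6 lower, with Pdk4, a kinase that slows pyruvate oxidation, at -4.82 and -2.98. The HIF regulators had 1 of 8 higher in each library and 0 and 1 lower.

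Between the libraries, 17.0% of all genes were lower with teriparatide in COP-like cells and 8.13% higher. Beside these shares, 6 of the 11 citric acid cycle genes were lower and 0 higher, 2 of 7 pentose phosphate genes lower and 1 of 8 HIF regulators lower. Of the other glycolysis and pyruvate genes 2 of 9 were lower and 2 higher (Pdk4 and Pdk2, at 8.98 and 7.18 CPM with teriparatide). The citric acid cycle genes had a median log2 ratio of -0.60, close to the -0.59 of the module. Of the other hypoxia response genes 7 of 21 were lower and 3 higher, with a median of -0.39. The higher were Stc2, with 27.3 CPM with vehicle and 153 CPM with teriparatide (2.48, 2.07 to 2.93), Ndrg1 with 21.2 and 60.8 CPM (1.52) and the stress gene Ddit4 with 73.1 and 126 CPM (0.79). These ratios stand beside a median of -0.21 for all genes, and none was tested.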
